A study of Mus musculus with 4 samples.

Results

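Hhex, Rbp4, Ghsr, Ptprz1, Spock3 and Bche are 6 genes used as markers of pancreatic δ cells, the islet cells that release somatostatin. They were picked by symbol from the deposited gene table, which has 51912 genes, and each symbol matched 1 row. The somatostatin gene Sst is not among them and serves as the reference. Counts come from RNA sequencing of cells sorted from islets of mice at neonatal day 13, with 2 libraries per genotype. All 4 libraries share 1 copy of the reporter Rosa26-lsl-H2B-mCherry and 1 copy of Ucn3-Cre, and the cells were sorted for mCherry, which marks cells where that Cre has acted. Ucn3 encodes urocortin 3, a hormone that β cells make as they mature. The control genotype has Robo1+/+ and Robo2+/+ in addition, and the mutant genotype Robo1delta/delta and Robo2flx/flx. Robo2 can thus be deleted where the Cre acts, while the labels do not tie the Robo1 deletion to it. By its title, the series asks about Roundabout receptors of β cells in the arrangement of islet cell types.

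δ cells lie among the β and α cells of the islet and restrain the secretion of both through somatostatin. Their own secretion is driven in part by urocortin 3 from β cells and by the stomach hormone ghrelin, which acts through the receptor encoded by Ghsr. Hhex encodes the homeodomain factor needed to form and keep δ cells. Rbp4 encodes the retinol carrier of plasma, Ptprz1 a receptor tyrosine phosphatase that binds pleiotrophin and contactin, Spock3 a secreted testican proteoglycan and Bche the enzyme butyrylcholinesterase. The last 3 genes are also known from glia, neurons or connective tissue, and Hhex also from endothelium, so none of the 6 is private to δ cells across the body.

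The libraries held 38886129 to 49593712 estimated counts. Genes with at least 1 count numbered 19919 and 20918 in control 1 and control 2, and 17751 and 17937 in mutant 1 and mutant 2. Levels are given as CPM, read counts scaled to the library total with TMM normalisation factors. All 8 β cell markers checked had counts in every library, led by Ins2. They summed to 231077 and 197280 CPM in the control and 227207 and 160030 CPM in the mutant libraries. Both targeted receptor genes were lower in both mutant libraries, Robo1 at 48.5 and 104 CPM in control against 22.3 and 21.0 CPM in mutant, and Robo2 at 75.3 and 118 against 32.7 and 25.6 CPM. edgeR gave both an adjusted p of 0.680 and DESeq2 gave 0.00186 and 1.99e-05. Nothing in the labels says that the libraries are of different mice. Their spread, and every p-value that rests on it, may therefore be technical only.

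Shown first is the DNA before the start sites of 4 members, 2 that were highest in mutant 1 with Sst and 2 that were highest in mutant 2. RefSeq promoter windows matched all 6 members (build GRCm38.p6), and the windows below hold the 250 bases before the RefSeq start, less any base that GENCODE M21 places in an exon of the gene. Capitals mark CG dinucleotides, which cluster in CpG island promoters. Hhex (chr19:37434591-37434809, plus strand) and Ptprz1 (chr6:22875252-22875501, plus strand) had their highest level in mutant 1, as Sst did. Ghsr (chr3:27371101-27371350, plus strand) and Rbp4 (chr19:38125322-38125571, minus strand) were highest in mutant 2.
Hhex: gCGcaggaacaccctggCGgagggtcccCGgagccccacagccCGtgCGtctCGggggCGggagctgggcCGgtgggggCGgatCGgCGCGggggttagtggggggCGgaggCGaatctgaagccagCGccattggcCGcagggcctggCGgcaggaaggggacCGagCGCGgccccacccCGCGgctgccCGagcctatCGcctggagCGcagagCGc
Ptprz1: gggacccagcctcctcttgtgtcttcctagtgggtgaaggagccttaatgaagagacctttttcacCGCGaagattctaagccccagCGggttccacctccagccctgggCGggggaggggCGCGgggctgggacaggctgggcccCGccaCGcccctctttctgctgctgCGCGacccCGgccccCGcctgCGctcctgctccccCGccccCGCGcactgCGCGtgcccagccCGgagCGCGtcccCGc
Ghsr: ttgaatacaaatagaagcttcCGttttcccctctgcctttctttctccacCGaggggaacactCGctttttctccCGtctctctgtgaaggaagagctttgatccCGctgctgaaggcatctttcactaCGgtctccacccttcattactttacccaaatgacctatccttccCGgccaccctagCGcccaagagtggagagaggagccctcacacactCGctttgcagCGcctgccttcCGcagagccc
Rbp4: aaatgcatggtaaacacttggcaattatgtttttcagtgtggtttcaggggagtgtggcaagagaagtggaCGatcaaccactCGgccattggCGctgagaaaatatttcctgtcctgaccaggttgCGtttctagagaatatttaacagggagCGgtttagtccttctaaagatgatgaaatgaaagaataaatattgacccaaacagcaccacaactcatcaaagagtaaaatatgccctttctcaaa
Over the full windows of 250 bases, G and C made up 76.0% of the Hhex and 71.6% of the Ptprz1 window, 54.0% for Ghsr and 40.8% for this Rbp4 window, against a median of 52.4% over 32851 promoter windows of the same length (quartiles 45.2% and 61.2%). CG dinucleotides numbered 32, 22, 11 and 5 in that order, against a median of 6. The window of Bche held 8 (35.6% G and C), and the 2 windows of Spock3 held 2 and 3 (46.4% and 56.4%). The Spock3 windows overlap each other, and GENCODE M21 places 223 and 207 of their bases in exons of the gene. For the full Hhex window that number is 31, and another annotated gene, Gm38345, also overlaps that window. Rbp4 has a further window, before a start inside the gene, with 70.8% G and C and 28 CG dinucleotides. In it, 124 bases lie in exons of Rbp4. These are features of the sequences and say nothing of what sets the levels.

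The somatostatin promoter is known for a cyclic AMP response element, spelled TGACGTCA, given here in capitals within 30 bases (chr16:23890874-23890903, minus strand).
Sst: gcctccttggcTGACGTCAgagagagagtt
It lay 48 to 41 bases before the RefSeq start. GENCODE M21 begins the gene further upstream, at 23890958, and places all 30 bases in an exon of Sst. They were printed without the trimming used for the windows above. The same 8 letters on either strand were present in 1.55% of all windows and in none of the windows of the 6 members. Of 5 other motifs searched on both strands, the E-box CANNTG (66.2% of all windows) was present in 1 window each of Rbp4, Ghsr, Spock3 and Bche, and TAATTA (4.84% of all windows) matched no member. TGTTTAC (3.17%) matched once, in the Rbp4 window printed above, 241 to 235 bases before its start. TATAAA (12.4%) and TGACG (17.8%, a part of TGACGTCA) each matched once, in the inner Rbp4 window. TATAAA lay there 28 to 23 bases before the start. A missing match says only that these letters are not in the window.

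The transcription factor gene Hhex and the phosphatase gene Ptprz1 were high in mutant 1 alone. Sst itself stood at 793 and 712 CPM in the controls, 2145 CPM in mutant 1 and 803 CPM in mutant 2. In bulk libraries like these, fewer cells of a type and less RNA per cell cannot be told apart. Hhex (ENSMUSG00000024986, chromosome 19, 37434810 to 37440731, plus strand, GRCm38) was at 9.76 and 12.9 CPM in the controls, 30.2 CPM in mutant 1 and 8.88 CPM in mutant 2. Mutant 1 was thus 2.67-fold above the control mean, while mutant 2 lay below both controls. The fitted log2 change over all 4 libraries was 0.79 ± 0.63 (SE), with a 95% interval of -0.90 to 2.48 (edgeR quasi-likelihood test, adjusted p = 0.981). Without mutant 1 it was -0.35.

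Ptprz1 (ENSMUSG00000068748, chromosome 6, 22875502 to 23052916, plus strand) repeated the pattern of Hhex with a wider gap. It was at 4.81 and 5.42 CPM in the controls, 13.5 CPM in mutant 1 and 2.82 CPM in mutant 2. Mutant 1 was 2.64-fold above the control mean and mutant 2 was 1.82-fold below it, so the mutant libraries lay on opposite sides of both controls. Its log2 change was 0.68 ± 0.81 (SE; interval -1.48 to 2.83), with an adjusted p of 0.9999 in edgeR, and -0.86 without mutant 1.

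Spock3 (ENSMUSG00000054162, chromosome 8, 62951009 to 63357103, plus strand) differed as much between the control libraries as between the mutant libraries. It was at 2.84 and 4.98 CPM in control 1 and control 2 and at 5.12 and 3.06 CPM in mutant 1 and mutant 2. The ranges overlapped almost fully. The log2 change was 0.06 with an interval of -1.53 to 1.66 (edgeR, adjusted p = 0.9999), which leaves room for changes of more than 2-fold in either direction, and its sign turned without control 1 (-0.28) or without mutant 1 (-0.35).

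The secreted carrier and the ghrelin receptor had their highest values in the other mutant library. Rbp4 (ENSMUSG00000024990, chromosome 19, 38116629 to 38125281, minus strand) was at 258 and 254 CPM in the controls, 329 CPM in mutant 1 and 470 CPM in mutant 2. It was the 1 member with both mutant libraries above both controls, the mutant mean being 1.56-fold higher. The log2 change was 0.64 ± 0.21 (SE; interval 0.08 to 1.20; edgeR, adjusted p = 0.751). DESeq2 gave it an adjusted p of 0.0905, also short of the threshold of 0.05.

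Ghsr (ENSMUSG00000051136, chromosome 3, 27371351 to 27378010, plus strand) rests on few counts, 101 and 76 in the controls, 96 in mutant 1 and 313 in mutant 2. These were 2.11, 1.86, 1.92 and 6.88 CPM. Mutant 1 sat between the controls and mutant 2 was 3.46-fold above their mean, with a 95% Poisson interval of 6.14 to 7.69 CPM that covers counting error only. The log2 change was 1.15 ± 0.81 (SE; interval -1.02 to 3.31; edgeR, adjusted p = 0.963), and -0.048 without mutant 2.

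Bche (ENSMUSG00000027792, chromosome 3, 73635808 to 73708415, minus strand) was the 1 member with both mutant libraries below both controls. It had 224 and 143 counts in control 1 and control 2, 0 in mutant 1 and 68 in mutant 2, or 4.68, 3.51, 0 and 1.5 CPM. Mutant 2 was 2.74-fold below the control mean, and mutant 1 at least 68.2-fold below it, taking 3 counts (0.0600 CPM) as the most that a count of 0 allows. The fit gave no call (log2 change -2.45 ± 2.08, SE; edgeR, adjusted p = 0.986), nor did limma (adjusted p = 0.780). Without mutant 1 the log2 change was -1.45. Counts of 0 at this level also occurred for other genes in the mutant libraries. Of 2651 tested genes whose mean count over the 4 libraries lay within 2-fold of that of Bche, 207 (7.81%) were at 0 in mutant 1, 213 (8.03%) in mutant 2, 38 (1.43%) in control 1 and 22 (0.830%) in control 2.

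**Figure D1:**
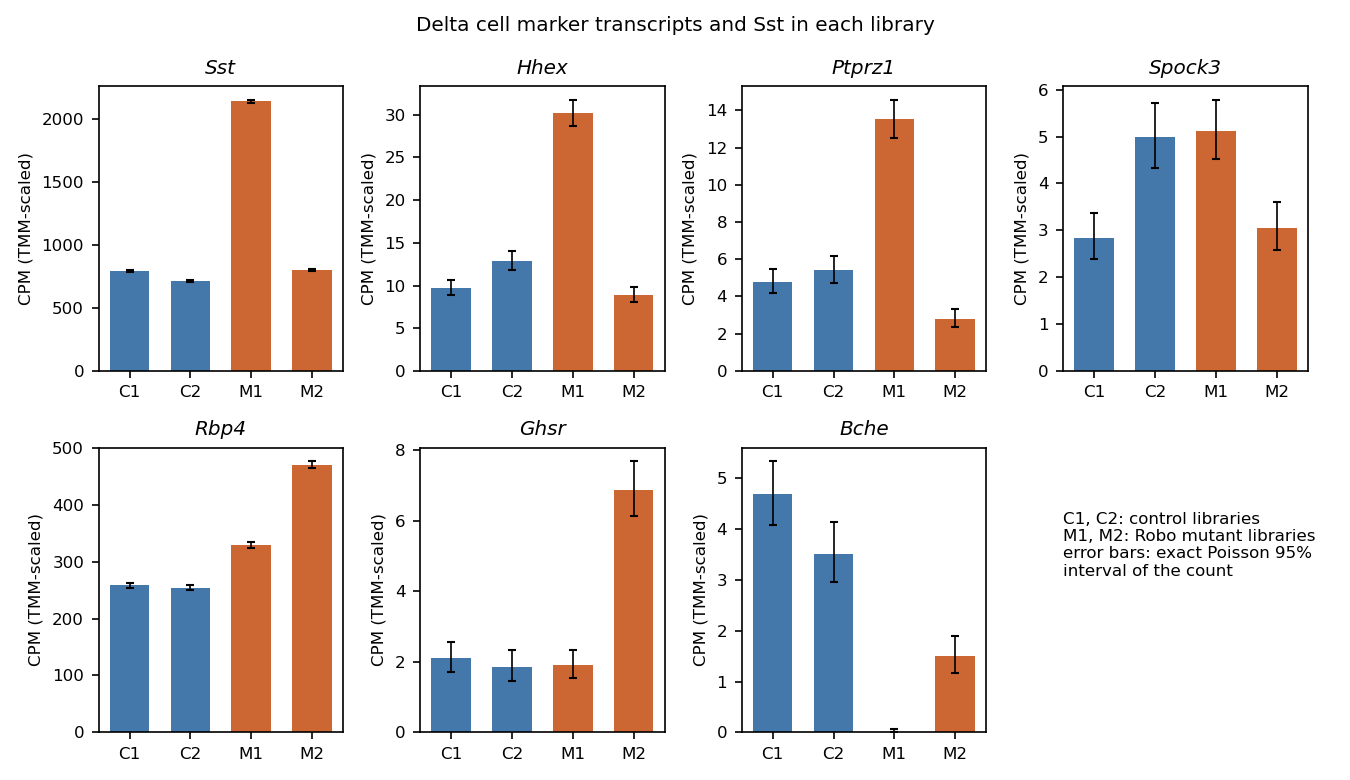
TMM-scaled CPM of Sst and the 6 members in control libraries (C1, C2, blue) and Robo mutant libraries (M1, M2, orange), each bar 1 library with its exact Poisson 95% interval, each panel on its own axis. Sst, Hhex and Ptprz1 peak in M1 (2145, 30.2 and 13.5 CPM), Rbp4 and Ghsr in M2 (470 and 6.88 CPM), and Bche is highest in C1.

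Counted over the members, 0 of 6 passed an adjusted p of 0.05 in edgeR, where 0% of the 16517 tested genes did and the smallest adjusted p was 0.680. DESeq2 called 0 of 6, against 0.914% of tested genes (151 genes), and limma 0 of 6, against 0%. All 6 members passed the filter on low counts. At an unadjusted p under 0.05 edgeR had 1 member, Rbp4, which was higher in the mutant, against 6.21% (1025 genes) of all tested, 1.99% higher and 4.21% lower. Both mutant libraries were above both controls in 1 of 6 (16.1% of tested genes) and below both in 1 of 6 (20.4%). The log2 change was above 0 in 5 of 6 (48.7% of tested genes), with a median of 0.66 against -0.01 over all tested genes. Without mutant 1 it was above 0 in 2 of 6 and the median was -0.35, and without mutant 2 it was above 0 in 4 of 6 with a median of 0.38.

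**Figure D2:**
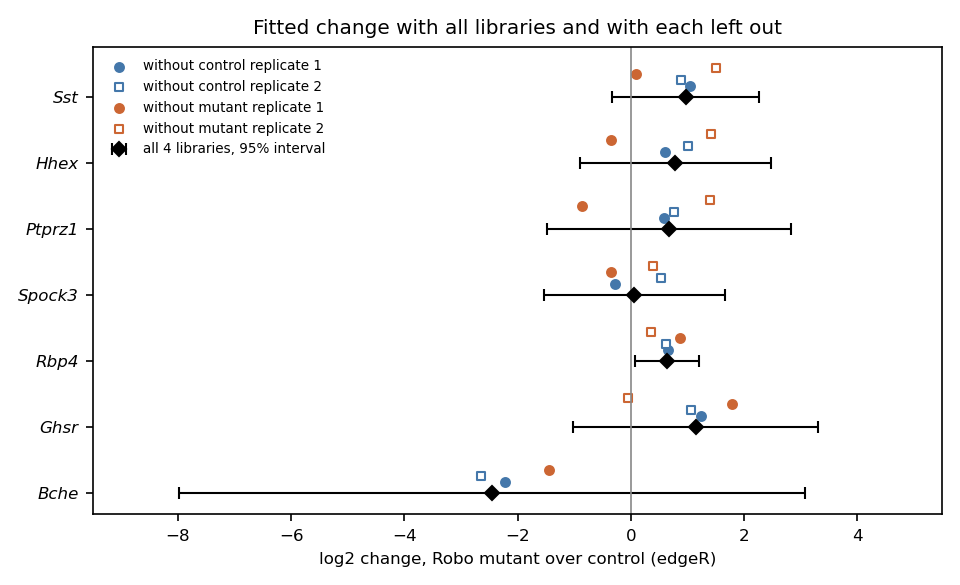
Fitted log2 change of Robo mutant over control (edgeR) for Sst and the 6 members: diamonds with 95% intervals for all 4 libraries, small marks with 1 library left out (Bche without mutant replicate 2 is not drawn, since the remaining mutant library is at 0). The interval of Rbp4 alone lies above 0, and Hhex, Ptprz1 and Spock3 fall below 0 without mutant replicate 1.

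The spread between the mutant libraries was larger than that between the controls in 4 members with counts in every library. Mutant 1 was 4.80-fold above mutant 2 for Ptprz1 and 3.40-fold above it for Hhex, beside 2.67-fold for Sst. In the opposite direction, mutant 2 was 3.58-fold above mutant 1 for Ghsr and 1.43-fold for Rbp4. Between the controls the same genes differed by 1.02-fold (Rbp4) to 1.32-fold (Hhex). Over the 14406 tested genes without a 0 in any library, the median fold between the mutant libraries was 1.33 and between the controls 1.18. Of these genes, 94.3% had a smaller gap between the mutant libraries than Ptprz1, 91.5% than Ghsr, 90.9% than Hhex and 58.4% than Rbp4. Spock3 had the wider gap in the controls, 1.75-fold against 1.68-fold.

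**Figure D3:**
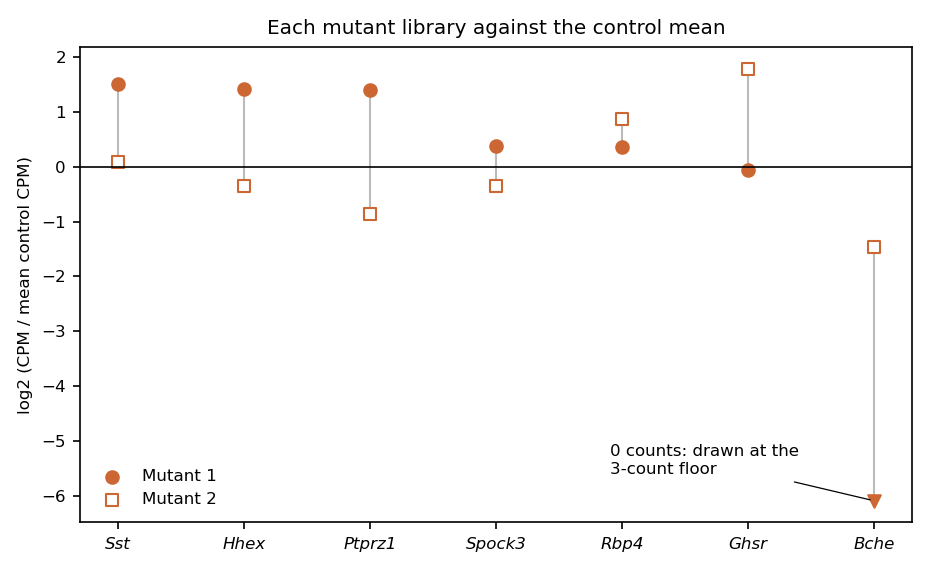
log2 ratio of each mutant library's CPM to the control mean for Sst and the 6 members (filled circles mutant 1, open squares mutant 2, triangle for 0 counts drawn at the 3-count floor). Sst, Hhex and Ptprz1 lie 1.51, 1.42 and 1.40 above the control mean in mutant 1, and Ghsr lies 1.79 above it in mutant 2.

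Set against Sst in the same library, a ratio that needs no scaling between libraries, Hhex was the steadiest member. It had 12.3 and 18.1 counts per 1000 Sst counts in the controls, 14.1 in mutant 1 and 11.1 in mutant 2, a 1.63-fold range from lowest to highest. Both control values bracketed that of mutant 1, although the level of Hhex there was the highest of all. Ptprz1 had 6.06 and 7.62 in the controls, 6.30 in mutant 1 and 3.50 in mutant 2, a 2.17-fold range.

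The ratios of the other members spread further. Spock3 ranged 2.93-fold, from 2.39 in mutant 1 to 7.0 in control 2. Rbp4 had 326 and 357 counts per 1000 Sst counts in the controls, 153 in mutant 1 and 585 in mutant 2, and Ghsr 2.66 and 2.62, then 0.895 and 8.57. For both genes the controls were close and the mutant libraries lay on either side of them, with ranges of 3.82-fold and 9.57-fold. Bche had 5.90 and 4.93 in the controls, 0 in mutant 1 and 1.86 in mutant 2.

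**Figure D4:**
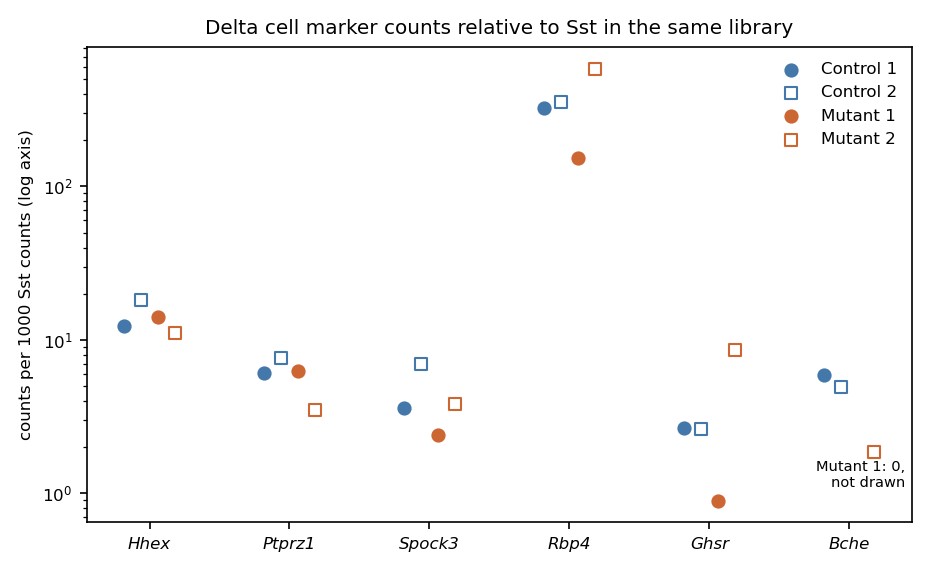
Counts of each member per 1000 Sst counts in the same library, on a log axis (blue controls, orange mutants, circles replicate 1, squares replicate 2). The 4 values of Hhex lie between 11.1 and 18.1, whereas those of Ghsr run from 0.895 to 8.57.

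Compared per kilobase of annotated exon, levels spanned a wide range. In the controls Sst was at 1043 CPM per kb, Rbp4 at 191, Hhex at 2.24, Spock3 at 0.647, Bche at 0.607, Ghsr at 0.448 and Ptprz1 at 0.359 CPM per kb. The steps from Sst to Rbp4, from Rbp4 to Hhex and from Hhex to Spock3 exceeded the spread between libraries, whereas the control values of Spock3 and Bche overlapped, as did those of Ghsr and Spock3. Ghsr and Ptprz1 were neighbours without overlap, at 0.421 and 0.476 against 0.337 and 0.381 CPM per kb. In the mutant libraries the order below Hhex changed, with Ghsr at 0.993, Spock3 at 0.676, Ptprz1 at 0.574 and Bche at 0.111 CPM per kb on average, although the mutant libraries of Ghsr stood at 0.433 and 1.55. Rbp4 made up 86.6% to 95.3% of the summed CPM of the 6 members. That sum was 283 CPM in each control, 380 CPM in mutant 1 and 493 CPM in mutant 2. Without Rbp4 the other 5 members summed to 24.2 and 28.6 CPM in the controls, 50.8 CPM in mutant 1 and 23.1 CPM in mutant 2. Leaving out Rbp4 therefore moves the highest library from mutant 2 to mutant 1.

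Marker lists of other cells also differed between the libraries, and their part in the values above was not tested. Mutant 2, where Rbp4 and Ghsr were highest, had the most acinar transcripts. The 9 acinar genes summed to 3820 and 436 CPM in the controls, 1795 CPM in mutant 1 and 34281 CPM in mutant 2, with Amy2a1 at 8237 CPM there. All 9 had counts in every library. The 7 stromal genes were lowest in mutant 2, at 12.9 CPM against 670 to 2243 CPM in the other libraries, and Col1a1, Pdgfra and Pdgfrb were at 0 in it. The 8 α cell markers, led by Gcg, summed to 23971 and 12039 CPM in the controls and 19430 and 24317 CPM in the mutants. PP and ε cell markers, led by Pyy, ran from 4319 to 6417 CPM in controls and from 5004 to 7143 CPM in mutants. Within that sum Pyy was at 3814 and 2920 CPM in the controls, then 4818 and 4207 CPM. Ppy was at 2593 and 1394 CPM in the controls, 2315 CPM in mutant 1 and 788 CPM in mutant 2, its lowest value. The 6 duct genes, led by Krt7, stood at 452 to 501 CPM in all libraries, with Cftr at 0 throughout. The 6 leukocyte genes, led by C1qa, stood at 41.6 and 22.7 CPM in controls and 46.1 and 47.0 CPM in mutants.

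2 lists bear on members known from other cells. In mutant 1, where Ptprz1 was highest, the 9 Schwann and glial genes had their lowest sum, 3.56 CPM against 8.20 to 13.8 CPM elsewhere, and 5 of the 9 were at 0 (S100b, Ngfr, Cdh19, Fabp7 and Gfap). In mutant 1, where Hhex was also highest, the 7 endothelial genes summed to 0.880 CPM, against 0.961 and 12.2 CPM in the controls and 0.176 CPM in mutant 2. Of these 7, Kdr, Flt1, Tie1 and Tek were at 0 in control 1 and both mutant libraries, and Cdh5 at 0 in the mutant libraries, so control 2 stood apart. In mutant 1 the counts were from Pecam1 (0.620 CPM) and Plvap (0.260 CPM).

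**Figure D5:**
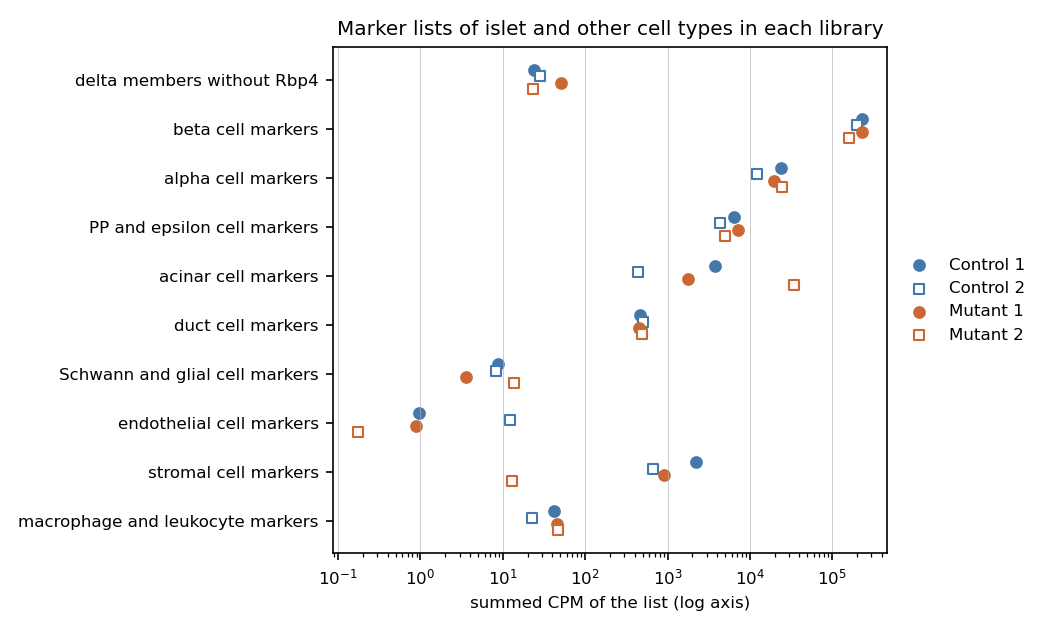
Summed CPM of marker lists in each library on a log axis (blue controls, orange mutants, circles replicate 1, squares replicate 2), with the δ cell members shown without Rbp4. The acinar sum stands apart in mutant 2 (34281 CPM), and the δ cell sum is highest in mutant 1 (50.8 CPM).

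None of the other δ cell genes listed passed the test in edgeR. Of these 7 genes 5 were tested, Lepr and Cckbr having too few counts, and 5 of 5, Sst included, had a log2 change above 0, with a median of 0.19 and none at an unadjusted p under 0.05 in edgeR. Ffar4, a receptor for long-chain fatty acids that restrains somatostatin release, was at 67.0 and 52.5 CPM in the controls and 69.4 and 74.5 CPM in the mutants (log2 change 0.27 ± 0.17, SE). Casr, the calcium-sensing receptor gene, was at 63.1 and 67.2 CPM, then 69.1 and 68.7 CPM (0.08 ± 0.12). Neither had the excess that Sst and Hhex showed in mutant 1.

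Among somatostatin receptors and the urocortin 3 loop, 8 of 9 genes were tested, 5 with a log2 change above 0 and 3 below. Sstr5, a somatostatin receptor gene, had 63 and 91 counts in the controls and none in either mutant library. With a floor of 3 counts per library it was 28.2-fold lower, a fold that the floor sets. Its unadjusted p was 0.0062 and its adjusted p 0.680 in edgeR, whereas DESeq2 gave an adjusted p of 0.0132. Sstr3 was at 142 and 177 CPM in the controls and 114 and 131 CPM in the mutants, without overlap (log2 change -0.38 ± 0.17, SE; edgeR, adjusted p = 0.877).

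Hhex works beside islet transcription factors, of which 12 of 13 were tested. A log2 change above 0 was found in 7 and below 0 in 5, with a median of 0.01 and 0 genes at an unadjusted p under 0.05. Pdx1, shared by β and δ cells, was at 203 and 235 CPM in the controls and 189 and 149 CPM in the mutants (-0.38 ± 0.18, SE). Neurod1 was at 425 and 436 CPM, then 510 and 509 CPM (0.24 ± 0.13), and Pax6 at 318 and 317 CPM, then 279 and 271 CPM (-0.21 ± 0.12). The groups of each did not overlap, and none was called in edgeR (adjusted p = 0.897, 0.917 and 0.922). Of all tested genes, 16.1% had both mutant libraries above both controls and 20.4% had both below.

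For Ghsr, the list of the ligand and its signalling chain had 6 tested genes of 8, all with a log2 change above 0 and none at an unadjusted p under 0.05 (median 0.13). Ghrl, the ghrelin gene of ε cells, was at 9.82 and 4.56 CPM in the controls and 9.50 and 9.32 CPM in the mutants, so mutant 2, where its receptor gene was highest, lay between the controls. Gnaq, the gene of the G protein subunit that couples the receptor to phospholipase C, was at 40.1 and 48.2 CPM, then 43.4 and 56.5 CPM. Plcb3, a phospholipase C gene, was at 19.6 and 22.1 CPM, then 21.9 and 24.4 CPM.

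For Rbp4, 7 of 15 genes of retinol transport and retinoic acid signalling were tested, 3 with a log2 change above 0 and 4 below, and 0 at an unadjusted p under 0.05. The retinoic acid receptor gene Rara was at 11.1 and 12.4 CPM in the controls and 15.1 and 14.8 CPM in the mutants (log2 change 0.35 ± 0.25, SE). Aldh1a3, which makes retinoic acid and is also known from stressed β cells, had 175 and 55 counts, then 50 and 0. For both genes the groups lay apart without passing the test, at adjusted p of 0.967 and 0.993 in edgeR. For Aldh1a3 the gap was narrow, with 55 counts in control 2 and 50 in mutant 1 (1.35 and 1.00 CPM). Both mutant libraries were above both controls in 16.1% of all tested genes and below both in 20.4%.

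For Ptprz1, of 8 listed ligands and relatives 7 were tested, 1 with a log2 change above 0 and 6 below, and 0 at an unadjusted p under 0.05 in edgeR. Ptn, the gene of its ligand pleiotrophin, was at 7.79 and 6.92 CPM in the controls, 8.16 CPM in mutant 1 and 1.74 CPM in mutant 2. Ptn and Ptprz1 were thus both highest in mutant 1 and lowest in mutant 2, but mutant 1 stood close to the controls for Ptn. Cntn1, the contactin gene, was at 99.1 and 96.3 CPM, then 91.6 and 66.8 CPM, and Nrcam, a neuronal adhesion gene, at 8.63 and 8.22 CPM, then 9.54 and 9.79 CPM.

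Relatives of Spock3 were all tested, 6 of 6 with a log2 change below 0 and a median of -0.13. Smoc2, a matricellular gene of connective tissue, had 190 and 233 counts in the controls and none in either mutant library. It was 76.9-fold lower by the same floor, which sets that fold (edgeR, adjusted p = 0.680; DESeq2, adjusted p = 9.73e-06). Counts of 0 in a mutant library also occurred for other genes, as given with Bche. Sparc ran from 81.5 to 275 CPM in the controls and from 27.6 to 150 CPM in the mutants, lowest in mutant 2 as the stromal list was. Spock1, another testican gene, was at 121 and 90.2 CPM, then 85.8 and 103 CPM. Per kilobase of exon it averaged 12.6 CPM in the controls, against 0.647 for Spock3.

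Of 7 genes of acetylcholine handling listed for Bche, 2 passed the filter. Ache, the acetylcholinesterase gene, had 79 and 127 counts in the controls, 121 in mutant 1 and 0 in mutant 2, so that mutant 1 lacked counts of Bche and mutant 2 lacked counts of Ache. Chrm3, the muscarinic receptor gene of islet cells, was at 29.5 and 26.5 CPM in the controls, 32.1 CPM in mutant 1 and 18.2 CPM in mutant 2.

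The members shared little that the choice of them did not use. Hhex and Rbp4 lie on chromosome 19, 675897 bases apart, and Ghsr and Bche on chromosome 3. Between the annotated ends of each member, promoter windows aside, only Spock3 overlapped other annotated genes, 4 in number. All were without counts and without shared exon bases. Averaged over the 6 members, the log2 profile was nearly flat (centred values of -0.10 and 0.02 in the controls, 0.12 and -0.04 in the mutants). The nearest to it by Euclidean distance over 4 libraries, among 8032 genes, were Arap1, Ppm1a, Dld, Dync1h1 and Tkt (distances 0.0152 to 0.0256).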

How the data were processed

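The authors deposited RSEM gene-level expected counts as whole numbers for 51912 genes in 4 libraries of sorted cells. Per the submitters' processing notes, RSEM 1.3.0, STAR 2.5.3a, edgeR 3.16.5 and bcl2fastq 2.20.0.422 were used with build GRCm38. The sources used here do not name the annotation or the step that used edgeR. The table's name calls the values normalized, but their totals differ between libraries, so they were used as counts. An earlier rescaling would make counting intervals approximate. Per the labels' protocols, cDNA was made with a SMART-Seq kit and tagmented, which does not mark the strand.

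The 16517 genes that reached 10 counts in 2 or more libraries were tested two-sided, mutant against control, with the quasi-likelihood test of edgeR 4.0.16 in R 4.3.3, TMM factors and Benjamini-Hochberg adjustment over all of them. A standard error is the absolute log2 change over the square root of F. DESeq2 1.42.0, limma 3.58.1 on log2(CPM + 1), RLE factors, totals alone, other filters and leaving out each library were alternatives. The fits were tested on simulated data. Replicates were numbered in accession order and pair nothing. Positions and exon lengths came from GENCODE M21 (GRCm38), and promoter windows from RefSeq (GRCm38.p6).

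Members and lists were chosen with earlier results of these data known. Besides the members, the rule names up to 3 genes of smallest p per partner list, the most abundant gene per cell type list and the 5 genes of nearest profile; some of these are not reported here. Names of list genes at 0 counts, the name Pecam1, the sum without Rbp4, and the repeats of the members' count and median, were added after their values were seen.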

Additional observations from a re-analysis of the deposited data

How the results depend on the processing

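No member was called under any alternative run (smallest adjusted p 0.0905, Rbp4 in DESeq2). Rbp4 was above 0 throughout, from 0.36 to 0.88 on the log2 scale when 1 library was left out. Leaving out 1 library gave -0.35 to 1.42 for Hhex, -0.86 to 1.40 for Ptprz1, -0.35 to 0.53 for Spock3, -0.048 to 1.79 for Ghsr, -10.56 (no bound, the remaining mutant library being at 0) to -1.45 for Bche and 0.10 to 1.51 for Sst, the remaining library of a genotype being assumed to vary like the others. Among partner genes it gave -0.024 to 0.36 for Gnaq, -0.059 to 1.04 for Ghrl, -2.08 to 0.15 for Ptn, -2.69 to 0.13 for Sparc, -0.36 to 0.066 for Spock1 and -0.62 to 0.20 for Chrm3. Ache ran from -9.74, a fitted value with the remaining mutant library at 0 and no bound, to 0.025 without mutant 2. The log2 ratio of the summed CPM of the 6 members was 0.63, with 0.43 to 0.80 when 1 library was left out and 0.48 without Rbp4. Members with a log2 change above 0 numbered 2 to 5 when 1 library was left out, and their median ran from -0.35 to 0.70, both lowest without mutant 1. The median was 0.41 in limma. These counts and medians were added after seeing the data. Genes called numbered 151 with DESeq2 (51 higher, 100 lower), 0 to 1 when 1 library was left out (1 without mutant 2), and 0 with the other settings. Of the partner genes named, DESeq2 called Sstr5 and Smoc2, both at 0 in both mutant libraries. With 2 libraries per genotype and 76 to 313 counts, changes of Ghsr smaller than the interval could not be resolved. No paired analysis was possible because the labels give no replicate numbers that the genotypes share.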
